A study of Mus musculus with 8 samples.

Results

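The genes described here are 10 genes known from blood stem and progenitor cells: the surface antigens Cd34, Prom1, Procr, Thy1, Ly6a, Slamf1 and Cd48, the niche ligand Angpt1 with its receptor Tek, and the transcription factor gene Mecom. They were taken from a fixed list of symbols, which was chosen with earlier results of these data known. A probe set counted when the platform annotation gave it that symbol alone. This gave 10 probe sets for 9 of the 10 genes, among 21789 probe sets for 19938 genes; Mecom had 2 probe sets, and no probe set carried the symbol Ly6a, so Ly6a is not analysed here. The mouse cells, of strain C57BL/6, carried an empty vector, the full-length leukaemia fusion NUP98-HOXA9, or the fusion with a deletion called delFG1 or delFG2, and RNA of each of these 4 groups was measured on 2 arrays. NUP98-HOXA9 joins a part of the nucleoporin NUP98 that is rich in phenylalanine-glycine (FG) repeats to the DNA-binding homeodomain of HOXA9. The groups allow the fusion to be compared with and without each deletion. Which residues each deletion removes, and what type of cell was used, is not stated in the labels. Separate cultures are not mentioned either, so a p-value here reflects only how far these arrays spread, which may be technical.

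Blood stem cells sit in a bone marrow niche and are recognised by combinations of surface proteins rather than by any single one. CD34 is a sialomucin of progenitors, which in adult mice is low or absent on the most dormant stem cells and present on short-lived progenitors. The endothelial protein C receptor (Procr), Thy1 and Ly6a, which is the Sca-1 antigen, mark stem cells in mice. The SLAM family members Slamf1 (CD150) and Cd48 are read together, since long-term stem cells carry the former and lack the latter. Angiopoietin 1 (Angpt1) activates the receptor tyrosine kinase TIE2, encoded by Tek, which is known for keeping stem cells quiescent, and Mecom encodes the zinc finger factor EVI1, which stem cells need.

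Promoter sequences show where transcription of these genes begins in the reference genome. Those of Cd34 and Procr, the members with the largest difference in each direction between full-length and empty vector arrays, of Mecom, and of Tek are given below as the 250 bases before the annotated start, 5′ to 3′ on the gene's strand, from RefSeq (assembly GRCm38.p6). The table used held 9 promoters of 7 of the 10 genes, 2 each for Mecom and Prom1. Capitals mark matches to any of 7 short motifs, searched on both strands. The first is the HOX-PBX core TGATNNAT, which includes the full HOX-PBX element TGATTTAT as the second motif. The third is TGACAG, bound by the HOX cofactors MEIS and PKNOX. The fourth is AGATAA, bound by GATA factors. The fifth is the ETS factor core CCGGAAG. The others are the CCAAT box and the TATA box (TATAAA).
Cd34 (chr1:194938571-194938820, plus strand): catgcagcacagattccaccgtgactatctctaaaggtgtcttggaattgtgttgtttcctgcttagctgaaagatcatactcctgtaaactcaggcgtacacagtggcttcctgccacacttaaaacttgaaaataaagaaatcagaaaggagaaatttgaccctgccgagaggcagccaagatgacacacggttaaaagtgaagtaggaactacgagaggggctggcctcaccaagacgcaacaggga
Procr (chr2:155750967-155751216, plus strand): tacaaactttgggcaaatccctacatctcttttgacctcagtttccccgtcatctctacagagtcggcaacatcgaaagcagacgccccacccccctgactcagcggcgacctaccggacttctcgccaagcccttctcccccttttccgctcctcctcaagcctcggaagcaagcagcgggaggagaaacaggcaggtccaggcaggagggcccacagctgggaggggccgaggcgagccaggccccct
Mecom, upstream start (chr3:30509760-30510009, minus strand): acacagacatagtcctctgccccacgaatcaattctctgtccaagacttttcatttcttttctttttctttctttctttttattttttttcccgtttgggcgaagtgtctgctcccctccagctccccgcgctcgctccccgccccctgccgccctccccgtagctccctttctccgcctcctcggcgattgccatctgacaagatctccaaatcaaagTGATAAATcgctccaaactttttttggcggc
Mecom, downstream start (chr3:30013205-30013454, minus strand): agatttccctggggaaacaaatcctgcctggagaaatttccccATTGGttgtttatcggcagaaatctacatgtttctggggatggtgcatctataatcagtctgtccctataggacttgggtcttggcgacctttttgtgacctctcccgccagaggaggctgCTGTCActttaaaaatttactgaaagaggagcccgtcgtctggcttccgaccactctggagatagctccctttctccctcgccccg
Tek (chr4:94739039-94739288, plus strand): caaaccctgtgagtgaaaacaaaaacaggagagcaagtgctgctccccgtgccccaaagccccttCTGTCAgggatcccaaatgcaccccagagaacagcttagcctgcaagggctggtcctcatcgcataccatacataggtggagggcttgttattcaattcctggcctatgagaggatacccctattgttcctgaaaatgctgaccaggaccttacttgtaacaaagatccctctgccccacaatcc

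The Cd34 and Procr windows held none of these letters. Of the 32851 promoters in the table, 7.68% held the HOX-PBX core, 0.837% the full element, 15.9% the MEIS or PKNOX element, 9.99% the GATA element, 6.91% the ETS core, 33.8% the CCAAT box and 12.4% the TATA box. Among the members, only the upstream Mecom window held a HOX-PBX core, beginning 31 bases before the start, and the downstream Mecom window and the Tek window held a MEIS or PKNOX element, beginning 86 and 185 bases before the start. A CCAAT box lay in the downstream Mecom window and in 1 of the Prom1 windows. These are matches of letters and not binding sites, and a window without a match says only that these letters are not in it.

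Signals are given as log2(intensity + 1), on which scale a difference of 1 is a doubling. The median over all tested probe sets lay between 6.71 and 6.76 on every array, the lowest signal of any tested probe set between 4.30 and 4.31, and no probe set was at 0. Slamf1, Tek and both Mecom probe sets stayed below 5.6 on all 8 arrays, in the lower part of the range; the deposited table holds no detection calls, so it cannot be said whether these signals are above background. Arrays of a group carry the numbers 1 and 2, and arrays of the same number deviated together, so each difference was fitted with limma without and with the number as a replicate block. A gene is called at an adjusted p under 0.05 by limma. In RNA of many cells, fewer cells of a type and less RNA per cell cannot be told apart.

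Cd34 showed the largest difference of any member between the full-length fusion and the empty vector. Its signal was 10.16 and 9.49 on the empty vector arrays numbered 1 and 2, 10.94 and 10.43 with the full-length fusion, 10.66 and 10.21 with delFG1, and 10.31 and 9.95 with delFG2. The full-length arrays lay above both empty vector arrays, and within each number the order was the same: empty vector lowest, then delFG2, delFG1 and full-length. On the full-length arrays Cd34 was higher by 0.86 on the log2 scale, a 1.81-fold difference, by 0.78 within number 1 and by 0.94 within number 2. It rose with the replicate block, with an SE of 0.08 and an adjusted p of 0.000189 by limma, and did not pass without it (adjusted p = 0.335).

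Both deletion mutants had mean Cd34 signals between those of the empty vector and the full-length fusion. Across the numbers, the delFG1 arrays overlapped with the full-length arrays, and the delFG2 arrays with the empty vector arrays. Cd34 was higher with delFG1 than with the empty vector by 0.61 (1.53-fold; limma adjusted p = 0.00117 with the block, 0.501 without). With delFG2 it was higher than with the empty vector by 0.31, which passed in neither fit (adjusted p = 0.146 with the block). Against the full-length fusion Cd34 fell by 0.55 with delFG2 (adjusted p = 0.0139 with the block), a call that the fit without the block did not make. The difference of -0.25 with delFG1 did not pass (adjusted p = 0.887 with the block), nor did that of -0.31 between delFG2 and delFG1 (0.195), although the latter was called without either empty vector array (0.0284 without number 1 and 0.0266 without number 2). Neighbouring groups in the order empty vector, delFG2, delFG1, full-length were therefore not told apart, while groups further apart were, in the fit with the block. The Cd34 calls of the full-length fusion and of delFG1 against the empty vector held in all 8 fits with the block that left out 1 array. The call of delFG2 against the full-length fusion held in 4 of them: it was lost without either full-length array (adjusted p = 0.298 without number 1 and 0.197 without number 2) and without either delFG2 array (0.235 and 0.0857).

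**Figure D1:**
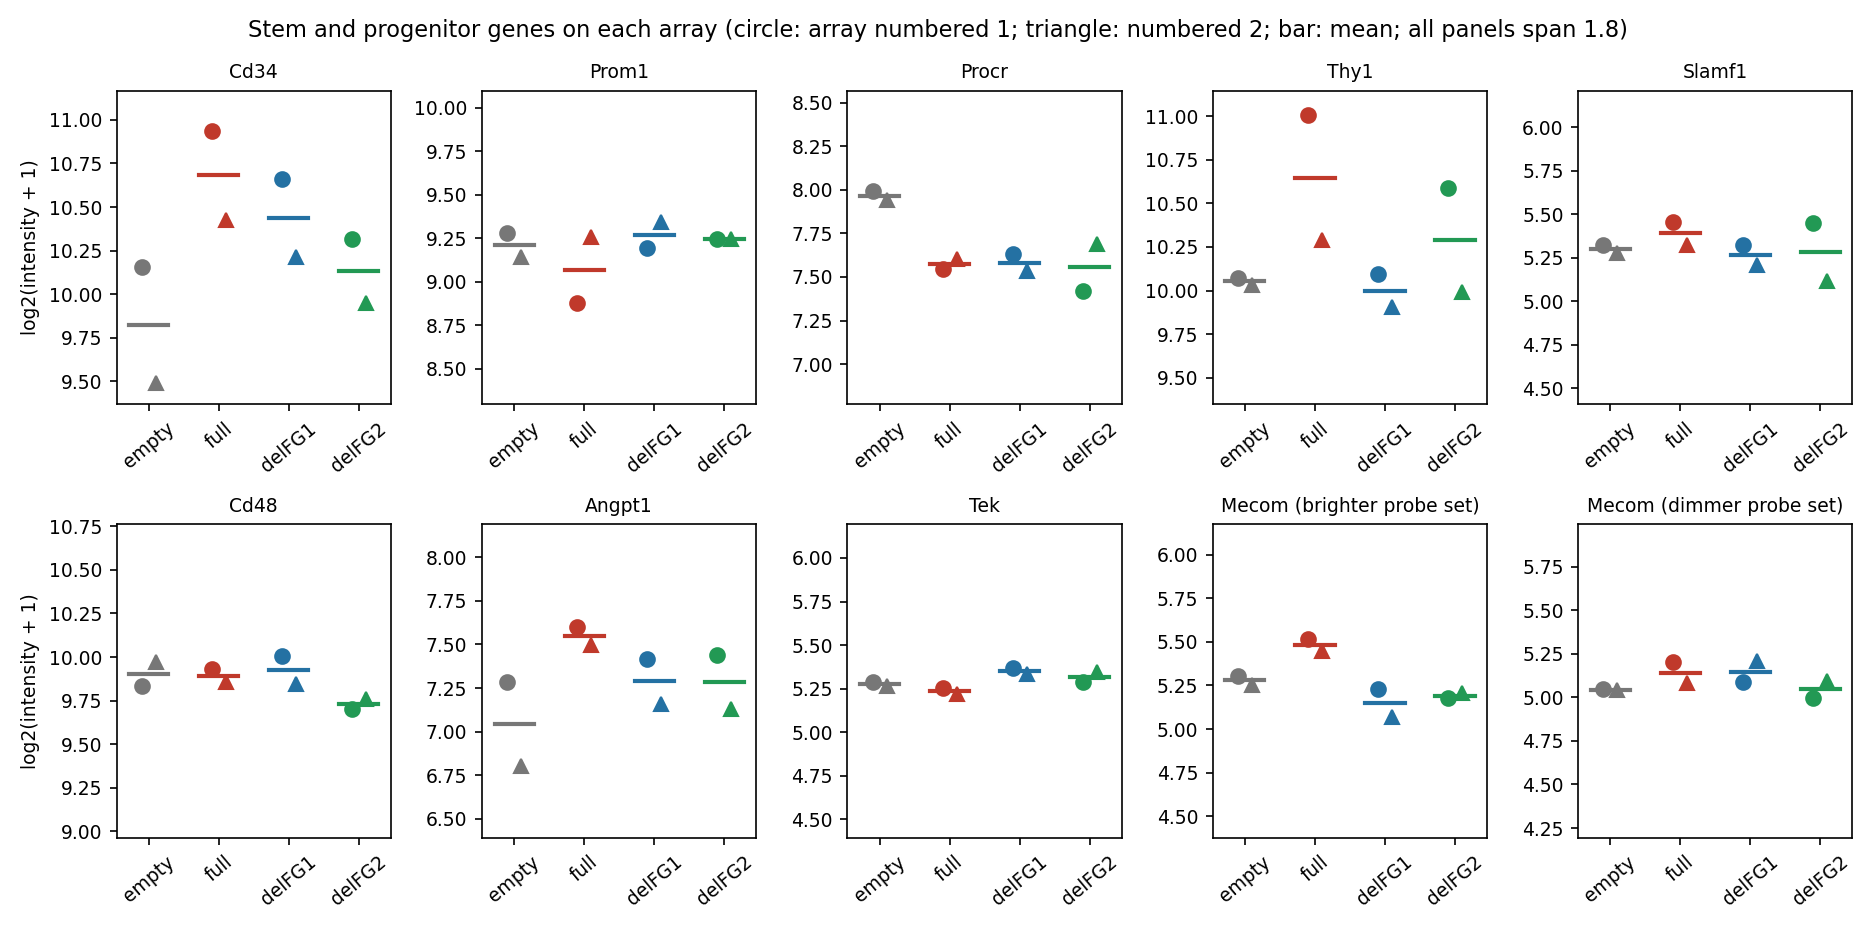
Signal of each of the 10 probe sets, as log2(intensity + 1) on the vertical axis, on the 8 arrays of the 4 groups; circles are arrays numbered 1, triangles arrays numbered 2, bars the mean of the 2 arrays, and every panel spans the same range of 1.8. Cd34 is highest with the full-length fusion and lower on every array numbered 2, Procr is highest with the empty vector, and Slamf1, Tek and the dimmer Mecom probe set differ little between groups.

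Of the niche pair, the ligand gene differed and the receptor gene did not pass in any comparison. Angpt1 had a signal of 7.28 and 6.80 with the empty vector, 7.60 and 7.49 with the full-length fusion, 7.42 and 7.16 with delFG1, and 7.44 and 7.13 with delFG2. The full-length arrays lay above those of every other group, and the mutants overlapped with each other and with the empty vector. Against the empty vector, the full-length fusion had an Angpt1 signal higher by 0.50, a 1.42-fold difference, and Angpt1 rose with the block (SE 0.11, adjusted p = 0.0232; 0.421 without it). The difference was 0.32 within number 1 and 0.69 within number 2. Both mutants lay 0.24 above the empty vector and 0.26 below the full-length fusion, and none of these 4 differences passed (lowest adjusted p = 0.287 with the block). Without the empty vector array numbered 2 the Angpt1 difference was 0.38 with the block and was no longer called (adjusted p = 0.115), and the call was also lost without either full-length array (0.0686 without number 1 and 0.231 without number 2).

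Tek, the angiopoietin receptor gene, had the narrowest range of all members, from 5.22 to 5.37 over the 8 arrays. It differed by -0.04 between full-length fusion and empty vector, with an SE of 0.07 in the fit with the block, and its largest difference was 0.12, between delFG1 and the full-length fusion.

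Among the stem cell antigens, Thy1 was higher and Procr lower on the full-length arrays than on the empty vector arrays. Of these differences, with all arrays in the fit, that of Thy1 was called only with the block and that of Procr in neither fit. Thy1, a small membrane protein held by a lipid anchor, had a signal of 10.07 and 10.03 with the empty vector, 11.01 and 10.29 with the full-length fusion, 10.09 and 9.91 with delFG1, and 10.59 and 9.99 with delFG2. The full-length arrays lay above those of the empty vector and of delFG1, and the full-length array numbered 1 stood 0.42 or more above every other array. Against the empty vector, Thy1 was higher by 0.59 with the full-length fusion (1.51-fold) and rose with the block (SE 0.14, adjusted p = 0.027; 0.487 without it). That difference was 0.93 within number 1 and 0.26 within number 2. Without the full-length array numbered 1 it was 0.37 with the block and 0.24 without it, and was not called in either (block adjusted p = 0.358), and without the empty vector array numbered 1 it was 0.36 with the block (0.169). With delFG1 the Thy1 signal was that of the empty vector within 0.05, and it lay 0.65 below the full-length fusion (SE 0.14), a difference that did not pass (adjusted p = 0.285 with the block) but was called without either empty vector array (0.0193 without number 1 and 0.0191 without number 2). With delFG2 it lay 0.36 below the full-length fusion and 0.24 above the empty vector, and neither difference passed. Without the full-length array numbered 1, the Thy1 difference between delFG2 and full-length fusion was 0.0024 without the block and -0.14 with it.

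Procr, the receptor that presents protein C to thrombin, had a signal of 7.99 and 7.94 with the empty vector, 7.55 and 7.60 with the full-length fusion, 7.63 and 7.53 with delFG1, and 7.42 and 7.69 with delFG2. All 6 arrays with a form of the fusion lay below both empty vector arrays. The differences from the empty vector were -0.39 with the full-length fusion, -0.38 with delFG1 and -0.41 with delFG2, each with an SE of 0.11, and none passed (adjusted p = 0.0704, 0.0808 and 0.163 with the block). The first of these was called when the delFG2 array numbered 1 was left out (0.0496). These 3 differences share the empty vector arrays. Each mutant differed from the full-length fusion by 0.02 or less. Unlike Cd34, Angpt1 and Thy1, whose means with both mutants lay below that of the full-length fusion, Procr thus had nearly the same signal with all 3 forms of the fusion.

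Neither gene of the SLAM pair passed in any comparison. Cd48, an antigen of progenitors and mature white cells, ranged from 9.70 to 10.01 over the 8 arrays, and its difference between full-length fusion and empty vector was -0.01 with an SE of 0.09. The delFG2 arrays, at 9.70 and 9.76, were the lowest of all and lay 0.17 below the empty vector, 0.16 below the full-length fusion and 0.19 below delFG1 (adjusted p = 0.53, 0.696 and 0.61 with the block). Slamf1, the receptor CD150, ranged from 5.12 to 5.46, and its differences lay between -0.12 and 0.09. Prom1, the pentaspan membrane protein CD133 of progenitor cells, ranged from 8.88 to 9.34. Its difference between full-length fusion and empty vector changed sign with the number: it was -0.40 within number 1 and 0.11 within number 2. The full-length array numbered 1 was the lowest of the 8 for Prom1 and the highest of the 8 for Cd34, Thy1 and Angpt1.

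Mecom, whose product EVI1 represses and activates transcription in stem cells, gave different pictures in its 2 probe sets. In the brighter one the signal was 5.30 and 5.25 with the empty vector, 5.52 and 5.45 with the full-length fusion, 5.23 and 5.07 with delFG1, and 5.18 and 5.21 with delFG2. The full-length arrays were the highest of all and the mutants lay below the empty vector. The differences were 0.20 for full-length against empty vector, and -0.33 for delFG1 and -0.29 for delFG2 against the full-length fusion, each with an SE of 0.07. None passed (adjusted p = 0.126, 0.277 and 0.146 with the block). In the dimmer probe set the signal had a median of 5.08 and a highest value of 5.21 over the 8 arrays, and the same differences were 0.10, 0.01 and -0.09. All Mecom signals were low, and which transcripts each probe set reads is not known here.

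**Figure D2:**
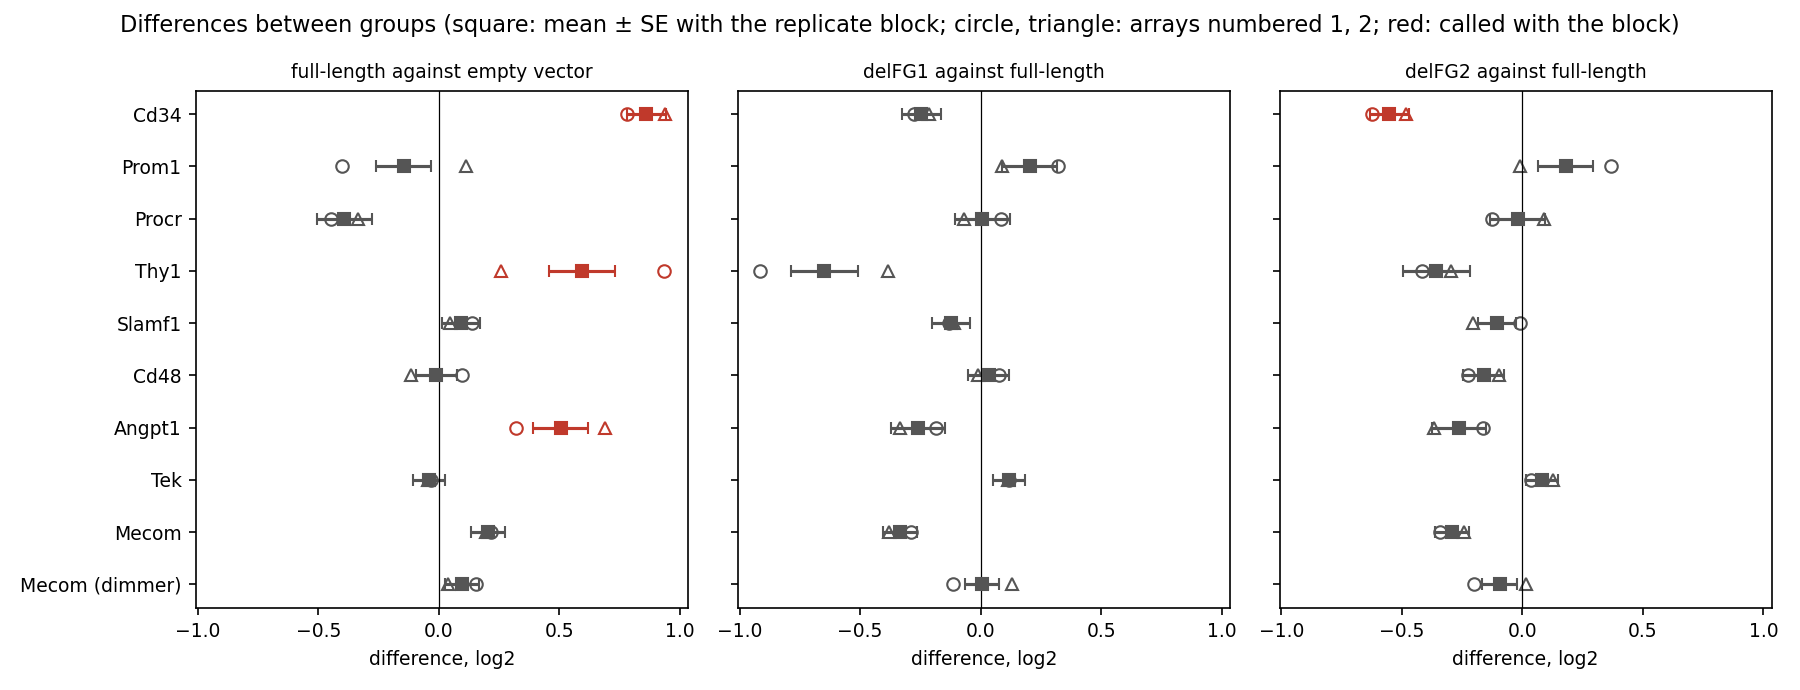
Difference between groups on the log2 scale (horizontal axis) for each probe set (rows) in 3 comparisons; squares with bars are the mean difference ± SE from the fit with the replicate block, open circles and triangles the difference between the arrays numbered 1 and numbered 2, and red marks a call with the block. Cd34 stands at 0.86, Thy1 at 0.59 and Angpt1 at 0.50 with the full-length fusion, and of the members only Cd34 is called in a comparison of a mutant with the full-length fusion, at -0.55 with delFG2.

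Counted over the 10 probe sets, few members were called. The members were chosen with earlier results of these data known. A member count above the share of all probe sets therefore says nothing about stem cell genes in general. Between full-length fusion and empty vector, 0 were called by limma without the block, where 0.124% of all probe sets were, and 5 had an unadjusted p under 0.05, as did 9.54% of all. With the block 3 were higher (Cd34, Thy1 and Angpt1), where 2.18% of all probe sets were called higher. The arrays of both groups did not overlap for 8 members, 6 higher and 2 lower, and for 39.1% of all probe sets. For delFG1 against the full-length fusion, 0 members were called in either fit (all probe sets: 0.00918% without and 0.078% with the block), 2 had an unadjusted p under 0.05 (2.07% of all), and 4 did not overlap (25.7% of all). For delFG2 against the full-length fusion, 0 were called without the block (0.0275% of all), with 1 at an unadjusted p under 0.05 (2.76% of all); with the block Cd34 was lower (0.17% of all were called lower), and 5 did not overlap (25.9%).

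Against the empty vector, the counts of members called with the block differed between the mutants by Cd34 alone. Cd34 itself did not pass between delFG2 and delFG1 (limma adjusted p = 0.195 with the block). For delFG1, 0 were called without the block (0.129% of all) and 2 had an unadjusted p under 0.05 (9.61% of all); Cd34 was higher with the block (1.94% of all were called higher), and 5 did not overlap (40.8%). For delFG2, 0 were called in either fit (0.00459% without and 0.505% with the block), 1 had an unadjusted p under 0.05 (4.43% of all), and 4 did not overlap (29.3%). Between the mutants 0 were called in either fit (0% and 0.537%), 0 had an unadjusted p under 0.05 (3.13% of all), and Cd48 alone did not overlap, lower with delFG2 (27% of all). Taking 1 probe set per gene, the median difference of the 9 members was 0.09 with full-length against empty vector, where that of all probe sets was 0.02, and -0.12 and -0.16 with delFG1 and delFG2 against the full-length fusion, where that of all was 0.00 and -0.01.

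The number of the array moved with the same members. Over all groups, the arrays numbered 2 were lower than those numbered 1 by 0.50 for Cd34 (adjusted p = 0.000507 by limma with the block), by 0.39 for Thy1 (0.0281) and by 0.29 for Angpt1 (0.042), and the other 7 probe sets were not called. Of 21789 probe sets, 1400 were higher and 1035 lower in the arrays numbered 2. Of 12 neutrophil markers 7 were higher and 1 lower there, and of 11 monocyte and macrophage markers 4 were higher. The labels do not explain the numbers.

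Other genes of the same families and roles were taken from lists of related genes, with 1 probe set per gene. With the block, 4.43% of all probe sets were called lower and 2.18% higher in full-length against empty vector, and 4.18% and 1.94% in delFG1 against empty vector, so calls over the whole array were more often lower; whether a list differs from the whole was not tested. In the angiopoietin and TIE family 10 of 12 were measured and 0 were called in any comparison in either fit; 1 had an unadjusted p under 0.05 with full-length against empty vector, and the median difference was 0.01 (0.02 over all probe sets). Of 10 measured SLAM family genes and adaptors 0 were called without the block (5 had an unadjusted p under 0.05, as did 9.54% of all probe sets) and 4 fell with it: Slamf6 by 0.67, Slamf9 by 0.63, Slamf7 by 0.62 and Sh2d1b1, a signalling adaptor of SLAM receptors, by 0.50. Their block adjusted p were 0.045, 0.00392, 0.0329 and 0.0159, and the median of the list was -0.37. With delFG1 against the empty vector 5 of the list fell with the block, among them Slamf7 (-0.86), Ly9 (-0.53), Slamf9 (-0.56) and the adhesion receptor gene Cd2 (-0.35), and with delFG2 0 were called in either fit, with a median of -0.29 and 2 at an unadjusted p under 0.05. Cd2 signals were low, with means of 5.68 (empty vector) and 5.33 (delFG1), so whether they are above background cannot be said. Slamf1 and Cd48, which are described above and not in this list, passed in no comparison. Of 12 measured genes of the Ly6 family Plaur, the urokinase receptor gene, fell with the full-length fusion (-0.63, block adjusted p = 0.000157), and with delFG2 it lay 0.35 higher than with the full-length fusion (0.0258). Plaur also fell with delFG1 against the empty vector (-0.67, block adjusted p = 0.000122), and with delFG2 it lay 0.39 higher than with delFG1 (0.018). None of these Plaur differences passed without the block. Several Ly6 genes are near-identical copies, so their probe sets may read more than 1 of them.

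A further list held surface genes of blood cells, not all of them particular to stem cells. Of 22 measured, 7 fell and 1 rose with the block between full-length fusion and empty vector (0 without it, 8 at an unadjusted p under 0.05), with a median of -0.13. The one that rose was Cd27, a tumour necrosis factor receptor family member of progenitors and lymphocytes, from a mean of 5.76 to 7.17, a difference of 1.41 (adjusted p = 0.000215 with the block, 0.096 without). It was 1.45 higher with delFG1 than with the empty vector and 0.73 lower with delFG2 than with delFG1 (block adjusted p = 0.0474). Among those that fell were Il7r (-1.01, the largest fall of the list), the hyaluronan receptor gene Cd44 (-0.57) and the endocytic receptor gene Ly75 (-0.76). Of 19 transcription factor and regulator genes 7 rose with the block (1, Hoxb5, at 0.76, also without it), such as Gfi1 (0.81), Mycn (0.50) and Hoxb4 (0.56), and the median was 0.17. For delFG1 and delFG2 against the full-length fusion, Hoxb5 (-0.62 and -0.66) and Meis1 (-0.82 and -0.72) fell with the block. Hoxb5 signals were low, with means of 5.15 (empty vector) and 5.90 (full-length), so whether they are above background cannot be said.

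Among CD34 relatives, protein C genes and Mecom partners few genes were called. In these lists and in that of niche ligands and adhesion genes, none passed without the block in any comparison. Of 5 measured relatives of Cd34 and Prom1, the sialomucin gene Emcn rose with the block, from 4.97 to 5.29 with the full-length fusion (adjusted p = 0.0247) and to 5.38 with delFG1 (0.00613). Without the block neither difference passed (limma adjusted p = 0.522 and 0.375). These Emcn signals were as low as those of Slamf1, Tek and Mecom, so it cannot be said whether they are above background. Of 7 genes of the protein C system 0 were called in any comparison in either fit; 2 had an unadjusted p under 0.05 with full-length against empty vector. Of 8 Mecom partners and PRDM genes, Spi1, the myeloid factor PU.1, fell by 0.24 with the full-length fusion (block adjusted p = 0.0258) and Gata2 fell by 0.35 with delFG1 (0.0203), both against the empty vector. Of 22 niche ligands and adhesion genes, Vegfa rose (0.59) and Il6 (-1.32), Notch1 (-0.35) and Notch2 (-0.50) fell with the full-length fusion and the block. Vcam1, an adhesion molecule of the niche, was 1.59 higher with delFG1 than with the empty vector (block adjusted p = 0.00121). In that comparison Il6 (-1.51) and Notch2 (-0.36) also fell and Vegfa (0.45) also rose with the block.

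**Figure D3:**
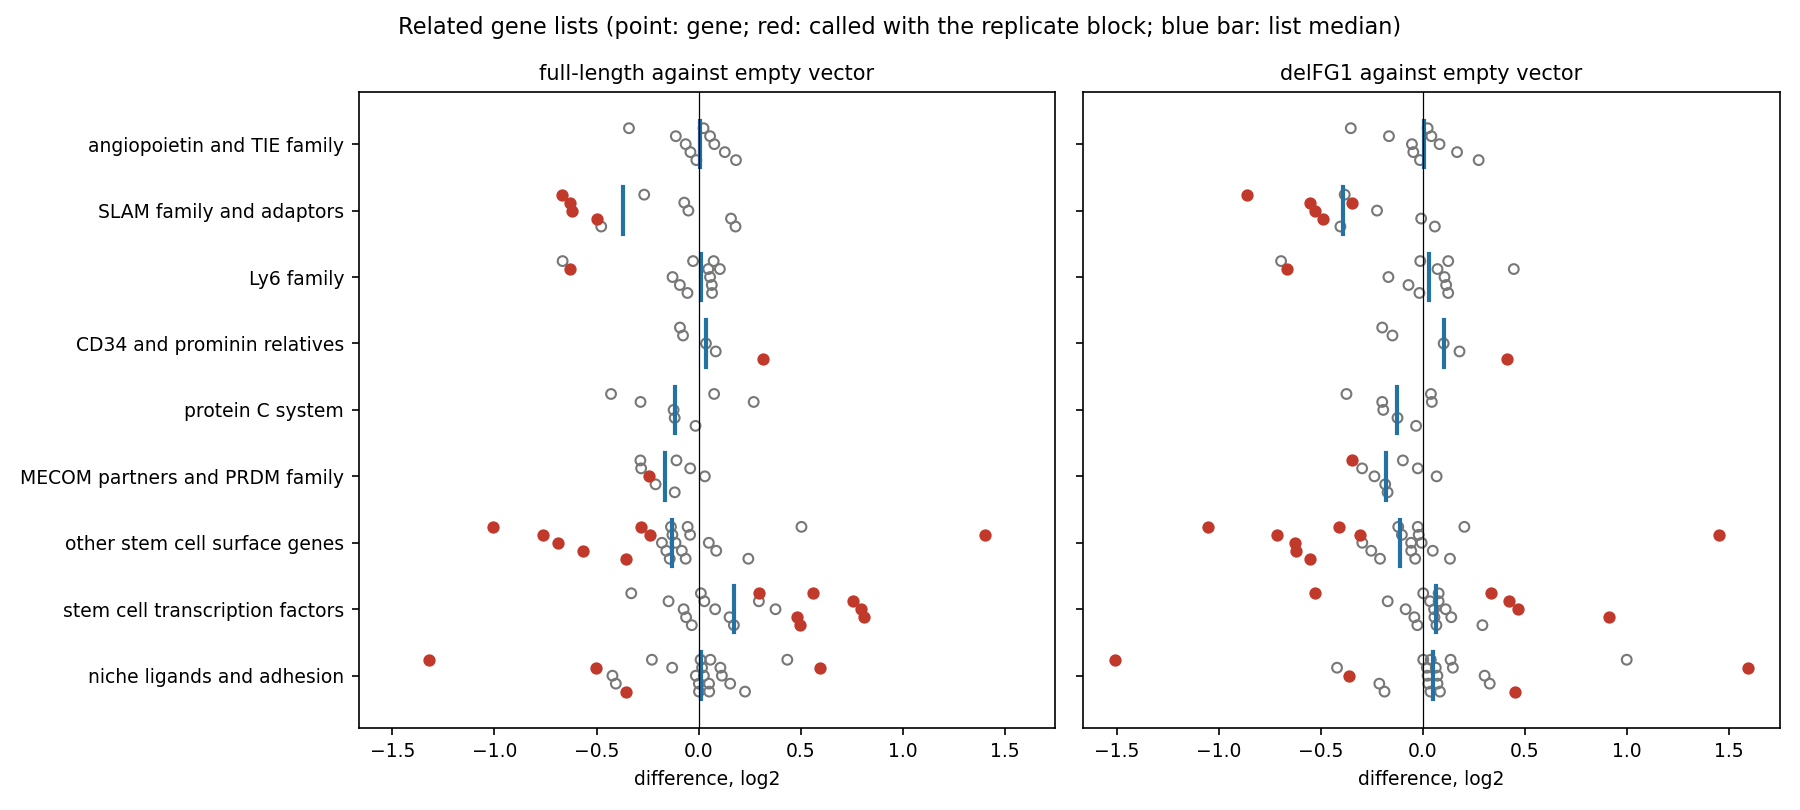
Differences on the log2 scale (horizontal axis) of the genes in 9 related lists (rows) for the full-length fusion and for delFG1, each against the empty vector; points are genes, red points are called with the replicate block, and blue bars are list medians. The SLAM list has medians of -0.37 and -0.39. Cd27 stands apart at 1.41 and 1.45 in the row labelled other stem cell surface genes, which are not all particular to stem cells.

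Cd34, Tek and Thy1 are also made by endothelial, stromal and T cells, so markers of these cells were read beside them. Of 11 endothelial markers, Emcn alone was called with full-length against empty vector, with the block and at the low signal given above. The mean signal of the list was 6.47 to 6.51 on the empty vector arrays and 6.55 to 6.57 on the full-length arrays. Of 10 stromal markers Lepr (0.46) and Thy1 itself were called with the block, with list means of 6.27 to 6.28 and 6.31 to 6.48. Without Thy1, the list means of the other 9 stromal markers were 5.85 to 5.86 on the empty vector arrays and 5.87 to 5.98 on the full-length arrays. Of 9 measured T and NK cell markers 0 were called in either fit (1 had an unadjusted p under 0.05), with list means of 6.05 to 6.11 and 6.08 to 6.16. Of the B cell markers 0 of 7 were called in either fit (1 had an unadjusted p under 0.05), and of the erythroid markers 1 of 5 was lower with the block. With the block, 6 of 12 neutrophil markers were lower and 1 higher, 5 of 11 monocyte and macrophage markers lower and 2 higher, 4 of 9 mast cell and basophil markers lower and 1 higher, and 4 of 5 megakaryocyte and platelet markers lower and 1 higher. The neutrophil list mean was 12.30 to 12.51 with the empty vector and 11.97 to 12.28 with the full-length fusion. The part of such cells in the differences of Cd34, Angpt1 and Thy1 was not tested.

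The genes with patterns most like those of the members were found by the root mean square difference between mean-centred signals over the 8 arrays, among 2259 probe sets with an SD of at least 0.2. For Cd34 the nearest was Tet1, which encodes an enzyme that oxidises methylated cytosine in DNA, at 0.08 from one probe set, followed by Nfxl1 at 0.13 and the methyltransferase gene Ntmt1 at 0.15. The nearest Tet1 probe set read 7.40 and 6.76 with the empty vector, 8.02 and 7.77 with the full-length fusion, 7.83 and 7.50 with delFG1, and 7.57 and 7.13 with delFG2. The order of groups within each number was that of Cd34. This probe set was chosen for its likeness to Cd34 on these same arrays, so neither that order nor its group differences are a separate finding. Tet1 had 2 further probe sets, at 0.10 and 0.20 from Cd34, and rose with full-length against empty vector with the block in all 3, by 0.81, 0.75 and 0.97 (adjusted p = 0.00207, 0.00244 and 0.000522); the last of these also passed without the block (0.0486). All 3 probe sets read the gene picked for its likeness to Cd34, on the same arrays, so their rises are not separate findings either. On the 4 group means of these same arrays Tet1 was also the nearest gene to Cd34. The nearest genes to Procr were Fcrl1 (0.06), Tmem268 (0.06) and Marchf1 (0.06), those to Angpt1 were Them6 (0.06), Gemin4 (0.07) and Tada2a (0.07), and those to Thy1 were Hbegf (0.15), Ptprs (0.16) and Bbs10 (0.16). For these 3 members the nearest genes on the 4 group means were other genes. The other members varied by an SD under 0.2 over the 8 arrays and were not compared in this way.

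**Figure D4:**
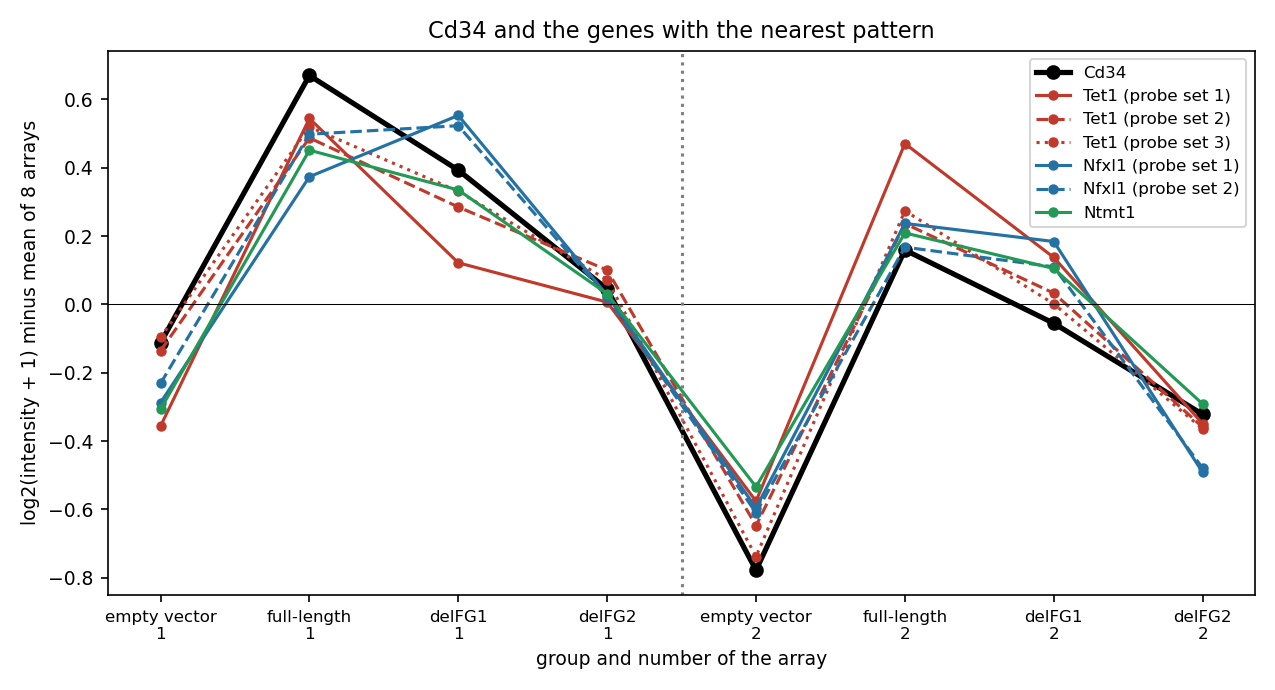
Signal of Cd34 and of its 3 nearest genes on each of the 8 arrays, as log2(intensity + 1) minus the probe set's mean over the arrays (vertical axis), with the arrays numbered 1 to the left of the dotted line and those numbered 2 to the right; lines join the arrays of a probe set. Cd34 and the Tet1 probe sets are lowest with the empty vector and highest with the full-length fusion within each number, whereas the mean of the nearest Nfxl1 probe set differs by -0.02 between delFG1 and the full-length fusion.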

How the data were processed

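RNA of 8 samples in 4 groups of 2 was measured on arrays. The deposited intensity values are linear and cover 28853 probe sets; their background correction, summary and normalisation are not stated in the labels. Per the labels' protocols, total RNA came from an RNeasy kit and fragmented single-stranded DNA carried the label, biotin. Median intensity was 80.7 to 83.2 on all arrays, so values were used as log2(intensity + 1) without further normalisation. Of the probe sets, 21789 carried 1 symbol in the platform annotation and were tested; 1621 with several and 5443 with none were left out. The number of arrays limits the precision.

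The test was limma 3.58.1 in R 4.3.3 (lmFit, eBayes with intensity trend, 4 group means, all 8 arrays), two-sided, with Benjamini-Hochberg adjustment within each of 6 comparisons across every tested probe set and a threshold of 0.05. The numbers 1 and 2 come from the labels, which do not say what they mark. After subtracting group means, arrays sharing a number correlated with r between 0.401 and 0.640 in all 6 pairs of groups, so the numbers were taken as pairing the samples and a fit with the replicate block stands beside the first; its SE is the one printed. The script was tested on simulated data with independent noise, in the fit without the block, so that test does not bear on the calls with the block. Of a gene with several probe sets, the one with the highest mean is named. All members are named; from related lists, up to 4 called genes per list and comparison, smallest p without the block first. Nearest genes are the 3 with the smallest root mean square difference. Members and lists were chosen with earlier results of these data known, and promoter motifs after the values were seen. Alternatives were pseudocount 16, a minimum mean of 6, median centring, quantile normalisation, no trend, only the 2 groups compared, and leaving out each array.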

Additional observations from a re-analysis of the deposited data

How the results depend on the processing

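With the replicate block the numbers of probe sets called were 1440 for full-length against empty vector (27 without it), 17 for delFG1 against full-length (2), 102 for delFG2 against full-length (6), 1333 for delFG1 against empty vector (28), 110 for delFG2 against empty vector (1) and 117 between the mutants (0; 683 at an unadjusted p under 0.05), and the numbers of members called were 3, 0, 1, 1, 0 and 0, against 0 without it. Without an intensity trend the counts of probe sets that moved by over 1.5 times were 3 for delFG2 against full-length, 5 for delFG1 against empty vector and 0 for delFG2 against empty vector; with only the 2 groups compared they were 1 for delFG1 against full-length and 2 for delFG2 against empty vector. Leaving out 1 array gave 7 to 36, 1 to 4, 1 to 7, 0 to 34, 0 to 2 and 0 to 4 probe sets in the same order, and 0 members throughout. With the block it gave 385 to 2378, 5 to 44, 17 to 324, 487 to 2272, 2 to 1065 and 1 to 313 probe sets, and 1 to 4, 0 to 1, 0 to 1, 1 to 1, 0 to 0 and 0 to 1 members. The cause was not tested. Under the other alternatives no member was called, and of 396 member differences 5 changed sign, none called and none over 0.02 in size. Leaving out 1 array changed the sign of 37 of 480 member differences without the block, none called and the largest 0.36 in size (Thy1, delFG2 against full-length), and of 38 of 480 with it, none called and the largest 0.18 in size. Low signals of Slamf1, Tek and Mecom limit what can be said of them, since no detection calls were given.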
